A study of Homo sapiens with 28 samples.

Results

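The 37 genes described here encode the enzymes, transporters and regulators of glycolysis and the genes that cells switch on when oxygen is low. They were chosen by symbol: a probe belonged to the set when the platform's annotation gave it 1 of the 37 symbols, with the older names PKM2 and AK3L1 accepted for PKM and AK4. The bead arrays named probes for 33 of the 37 genes (60 probes), out of 18811 genes with a named probe in all. EGLN3, SLC2A3, SLC16A1 and SLC16A3 had no named probe and were not analysed here. By role the set held 4 transporters of glucose and lactate, 15 glycolytic enzymes, 4 lactate dehydrogenases and pyruvate dehydrogenase kinases, 3 bifunctional regulators of phosphofructokinase and 11 genes of oxygen sensing and the hypoxia response.

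RNA was measured on 28 arrays from JeKo-1 and Z138, established lines of mantle cell lymphoma, a cancer of mature B cells. JeKo-1 cells were harvested at 0 h, before treatment, and after 12, 24 and 36 h with ONC201, with 3 arrays at each time. ONC201, a small-molecule drug candidate against cancer, is known as an activator of CLPP, a protease of the mitochondrial matrix. Its dose in JeKo-1 was not given in the sources used here. Z138 cells that were resistant to ONC201, and the parental cells, received 5 µM ONC201 for 24 h or were left untreated, with 2 arrays per group. A separate experiment on JeKo-1 had 2 arrays each for tunicamycin (1 µM, 12 or 24 h), rapamycin (10 nM, 24 h) and untreated cells harvested at 24 h. Tunicamycin blocks N-linked glycosylation and so stresses the endoplasmic reticulum, and rapamycin inhibits the kinase complex mTORC1. All compounds were dissolved in DMSO, and untreated cells received DMSO. Within an experiment the replicate wells of a line were filled from 1 stock culture, so the p-values rest on differences between wells of that culture, and these may be technical. How the resistant Z138 cells were obtained, and whether they are 1 clone, was not given in the sources used here.

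Glycolysis turns glucose into pyruvate and yields ATP without oxygen, and lactate dehydrogenase reduces the pyruvate to lactate. Hypoxia-inducible factors (HIF) are transcription factors whose alpha subunit is hydroxylated by prolyl hydroxylases such as EGLN1 and then degraded while oxygen is present. When oxygen is low they bind a short core sequence in promoters and enhancers and raise transcription of glucose transporters, glycolytic enzymes, mitophagy receptors and growth factors such as VEGFA. Some of these genes also respond to mTORC1, MYC and the stress kinases that phosphorylate the translation factor eIF2.

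Promoters are shown for 6 members on which the results turn, as the 250 bases before and the 50 bases after the start of the gene (RefSeq, GRCh38.p14). The first 4 genes were higher in untreated JeKo-1 cells at 24 h than at 0 h by more than 1 log2 unit. They and the last 2, SLC2A1 and PGAM1, came from members with a single promoter entry, the first 4 as those with the largest rises in that comparison and the last 2 as those lowest against 0 h among the rest that rapamycin lowered below both untreated groups. Capitals mark the hypoxia response cores ACGTG and GCGTG on either strand, which read CACGT and CACGC on the other strand. Where both strands carry ACGTG, the overlapping letters form the E-box CACGTG. PFKFB4 lies at chr3:48556754-48557053 on the minus strand, P4HA1 at chr10:73096817-73097116 (minus), ALDOC at chr17:28576846-28577145 (minus), BNIP3 at chr10:131981874-131982173 (minus), SLC2A1 at chr1:42958819-42959118 (minus) and PGAM1 at chr10:97427568-97427867 (plus).
PFKFB4: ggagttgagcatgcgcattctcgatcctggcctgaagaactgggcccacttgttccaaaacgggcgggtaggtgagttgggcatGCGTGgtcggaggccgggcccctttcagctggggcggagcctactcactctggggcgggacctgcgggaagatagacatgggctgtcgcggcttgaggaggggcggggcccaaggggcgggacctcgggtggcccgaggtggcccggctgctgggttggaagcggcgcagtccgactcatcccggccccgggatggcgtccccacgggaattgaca
P4HA1: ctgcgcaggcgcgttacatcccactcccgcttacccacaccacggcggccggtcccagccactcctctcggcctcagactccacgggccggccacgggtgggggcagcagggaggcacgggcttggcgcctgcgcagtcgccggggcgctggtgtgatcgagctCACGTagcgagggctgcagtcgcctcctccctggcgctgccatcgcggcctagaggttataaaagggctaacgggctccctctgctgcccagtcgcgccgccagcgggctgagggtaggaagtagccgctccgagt
ALDOC: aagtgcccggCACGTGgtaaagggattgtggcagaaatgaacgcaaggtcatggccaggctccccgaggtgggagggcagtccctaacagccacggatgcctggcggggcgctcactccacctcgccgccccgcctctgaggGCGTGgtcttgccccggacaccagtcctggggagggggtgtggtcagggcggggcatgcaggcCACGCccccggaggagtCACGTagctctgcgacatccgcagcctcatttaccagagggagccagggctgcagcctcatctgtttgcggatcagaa
BNIP3: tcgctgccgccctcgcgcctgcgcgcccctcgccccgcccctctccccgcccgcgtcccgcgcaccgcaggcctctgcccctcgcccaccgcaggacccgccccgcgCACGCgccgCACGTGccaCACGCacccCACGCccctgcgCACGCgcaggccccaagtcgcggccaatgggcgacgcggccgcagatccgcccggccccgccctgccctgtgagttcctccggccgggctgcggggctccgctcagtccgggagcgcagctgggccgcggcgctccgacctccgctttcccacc
SLC2A1: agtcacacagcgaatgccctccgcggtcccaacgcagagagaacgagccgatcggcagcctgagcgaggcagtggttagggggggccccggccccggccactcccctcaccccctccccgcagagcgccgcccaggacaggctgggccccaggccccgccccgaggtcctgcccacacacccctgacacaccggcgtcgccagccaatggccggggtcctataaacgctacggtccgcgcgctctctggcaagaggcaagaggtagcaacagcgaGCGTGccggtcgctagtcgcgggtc
PGAM1: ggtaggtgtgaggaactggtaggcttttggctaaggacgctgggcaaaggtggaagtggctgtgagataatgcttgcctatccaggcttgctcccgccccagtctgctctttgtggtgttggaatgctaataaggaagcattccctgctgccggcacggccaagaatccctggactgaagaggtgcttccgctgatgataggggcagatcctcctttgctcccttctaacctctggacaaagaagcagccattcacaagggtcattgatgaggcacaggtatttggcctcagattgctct
The BNIP3 window held 6 cores and the ALDOC window 5, while the PGAM1 window held 0. At least 1 core was present in 69.4% of the 62 windows of the 32 members that had an entry, and in 48.4% of all 35114 promoter windows of this length. ACGTG alone was in 41.9% of the member windows and 21.4% of all windows, GCGTG in 41.9% and 36.5%, and CACGTG in 17.7% and 7.26%. A core in these letters is a description of the sequence and not a measured binding site.

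Values below are log2 intensities after background correction and quantile normalization of the 28 arrays. A probe counted as detected on an array when its detection p was under 0.01. The lowest value of a detected probe was 5.15 to 5.61 on different arrays. On each array 29.7% to 35.2% of the probes passed. The B-cell genes CD79A, CD79B and MS4A1 and the mantle cell lymphoma gene SOX11 were detected on all 28 arrays. The probe for CCND1, the cyclin D1 gene that defines most mantle cell lymphomas, was detected on 8 of 8 Z138 arrays and on 0 of 20 JeKo-1 arrays. CD22, another B-cell gene, was detected on 18 of 20 JeKo-1 and 4 of 8 Z138 arrays. Of 13 genes of T cells, monocytes, epithelium, fibroblasts and red cells, CD3G and COL1A1 were detected on all 8 Z138 arrays and on 0 of 20 JeKo-1 arrays, CD14 on 5 JeKo-1 and 2 Z138 arrays, CSF1R on 1 and KRT8 on 2 JeKo-1 arrays, and the other 8 on none. Every experiment was run on its own chip, filled group by group, so position on the chip and group cannot be told apart.

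Of the 33 members with a probe, 27 were detected on all 28 arrays. VEGFA was detected on 26 arrays, HIF1A on 15, PFKFB4 on 9, ENO2 on 7 and PFKFB2 on 2. PDK1, the pyruvate dehydrogenase kinase that diverts pyruvate from the mitochondria, was detected on none and was not tested. A gene entered a test when its probe was detected on at least 3 arrays of the ONC201 course, or on 2 arrays of the other experiments. That left 30 to 32 members in each comparison. ENO2 and PFKFB4 in the ONC201 course and in Z138 would not have passed without the group that detected them most. The same held for PFKFB4 in the experiment with tunicamycin and rapamycin. It also held for PFKFB2 in that experiment and over the 20 JeKo-1 arrays, detected on 1 tunicamycin and 1 rapamycin array at 24 h. Differences of these genes to those groups were favoured by the filter, and counts are also given without them. A gene was called changed when its p from limma, adjusted by the Benjamini-Hochberg method over all genes tested, was under 0.05. The SE given with a change is that of the limma fit. Fewer cells and less RNA per cell cannot be told apart in such data.

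Untreated JeKo-1 cells at 24 h, set against untreated cells at 0 h, show how far these genes moved without any compound. Most of the hypoxia genes in the set and several of its glycolytic genes were higher at 24 h. Of 32 members tested, 20 were higher at 24 h and 3 lower, where 20.6% of all 9870 genes tested were higher and 27.2% lower. The median member difference was 0.37 log2 units, against -0.03 over all genes. Outside the set the rise was not general: of 23 other hypoxia genes tested, 5 were higher and 1 lower. Of 17 other glycolysis genes tested, 1 was higher and 7 were lower. The 0 h cells belong to the ONC201 experiment and the 24 h cells to the experiment with tunicamycin and rapamycin, so time in culture, stock culture and chip cannot be told apart in this comparison.

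Of 10 hypoxia genes tested, 9 were called higher at 24 h and none lower (20.6% and 27.2% of all genes), with a median of 0.97. P4HA1, the catalytic subunit of the prolyl hydroxylase that matures collagen, read 8.91 and 9.02 in untreated cells at 24 h, against 7.28, 6.82 and 6.94 at 0 h. The groups did not overlap, and the difference was 1.95 (SE 0.12, adjusted p = 8.77e-09). BNIP3, a mitophagy receptor of the outer mitochondrial membrane whose promoter above held the most cores, read 11.98 and 11.97 at 24 h, against 10.69, 10.46 and 10.53 at 0 h. That is a difference of 1.41 (adjusted p = 8.43e-09), with every 24 h array above every 0 h array. Its relative BNIP3L was higher by 1.11, AK4, a mitochondrial adenylate kinase, by 1.79 and ADM, the vasodilator peptide adrenomedullin, by 1.36. ADM read 7.61 and 7.54 at 24 h and 6.31, 6.08 and 6.26 at 0 h. EGLN1 itself, an oxygen sensor, read 6.77 and 6.49 at 24 h and 5.90, 5.59 and 5.90 at 0 h, a difference of 0.83 (adjusted p = 7.66e-05). BHLHE40, a transcriptional repressor, read 10.04 and 9.97 at 24 h and 9.59, 9.67 and 9.63 at 0 h, a difference of 0.37. The groups of ADM, EGLN1 and BHLHE40 did not overlap.

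Among the hypoxia genes the exceptions were VEGFA, ANKRD37 and HIF1A. VEGFA, the endothelial growth factor, read 7.08 and 7.0 at 24 h, against 6.83, 6.81 and 6.79 at 0 h. Its difference of 0.23 lost its call when any of the 5 arrays was left out (adjusted p up to 0.228), and its second probe gave -0.40. ANKRD37, an ankyrin-repeat gene known for its induction by hypoxia, differed by 0.14 (adjusted p = 0.585). HIF1A, the oxygen-regulated alpha subunit, stayed near the limit of detection, at 5.63 and 5.55 at 24 h, where both arrays detected it, and 5.02, 5.04 and 4.87 at 0 h, where none did. The measured means of 5.59 and 4.98 give only a lower bound, at least 1.06-fold higher at 24 h (adjusted p = 0.0160), and the call was lost without either of the 24 h arrays (adjusted p up to 0.0922). Such a bound sets the mean of the detected group against the higher, on each array of the other group, of that probe's value and the lowest value of any detected probe.

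PFKFB4, which makes and breaks down the fructose bisphosphate that activates phosphofructokinase, differed by more than any other member in this comparison. It read 9.02 and 9.11 at 24 h and was detected on both arrays, while at 0 h it read 5.23, 5.05 and 4.93 and was detected on none. Its level was at least 11.8-fold higher at 24 h (means of 9.06 and 5.07, adjusted p = 1.01e-07). Its paralogue PFKFB3 read 9.23 and 9.26 at 24 h against 9.38, 9.58 and 9.44 at 0 h, a difference of -0.22 whose call was lost on leaving out 4 of the 5 arrays in turn, all but 1 (adjusted p up to 0.159). The second PFKFB3 probe gave 0.18.

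Of 15 glycolytic enzymes, 7 were called higher at 24 h and 1 lower (20.6% and 27.2% of all genes). ALDOC, the brain-type aldolase, read 10.79 and 10.82 at 24 h, against 9.19, 9.17 and 9.06 at 0 h. The groups were far apart (1.66, SE 0.12, adjusted p = 4.31e-08). The difference was 0.69 for HK1, a hexokinase that traps glucose in the cell, and 0.37 for TPI1, the triose phosphate isomerase. PGK1, which makes the first ATP of the pathway, read 12.24 and 12.24 at 24 h and 11.77, 11.46 and 12.01 at 0 h (0.49, adjusted p = 0.00938). HK2, the inducible hexokinase, read 9.66 and 9.94 at 24 h, against 9.36, 9.19 and 9.56 at 0 h (0.43, adjusted p = 0.00371). Both sets of values were separate, but the PGK1 call was lost without 24 h array 1 (adjusted p = 0.0520) and the HK2 call without 24 h array 2 (adjusted p = 0.0857). PFKM, the muscle-type phosphofructokinase, moved the other way: it read 8.84 and 8.97 at 24 h and 9.67, 9.95 and 9.70 at 0 h (-0.87, adjusted p = 3.13e-06). SLC2A1, the GLUT1 glucose transporter, was also lower, with 7.64 and 7.79 at 24 h against 8.40, 8.35 and 8.11 at 0 h (-0.57, adjusted p = 0.000201). The calls of PFKP (0.23) and ENO1 (14.27 and 14.33 at 24 h, 14.10, 14.10 and 14.12 at 0 h, 0.20) were lost on leaving out 4 and 5 of the 5 arrays in turn (adjusted p up to 0.264 and 0.192).

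LDHA and LDHB encode the subunits of lactate dehydrogenase, and PDK3 a second pyruvate dehydrogenase kinase. All 3 were called higher at 24 h (20.6% of all genes were). LDHA read 14.00 and 14.11 at 24 h and 13.86, 13.66 and 13.90 at 0 h, a difference of 0.25 that was no longer called without 0 h array 2 or without 24 h array 2 (adjusted p up to 0.170). LDHB was higher by 0.42 and PDK3 by 0.57.

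**Figure D1:**
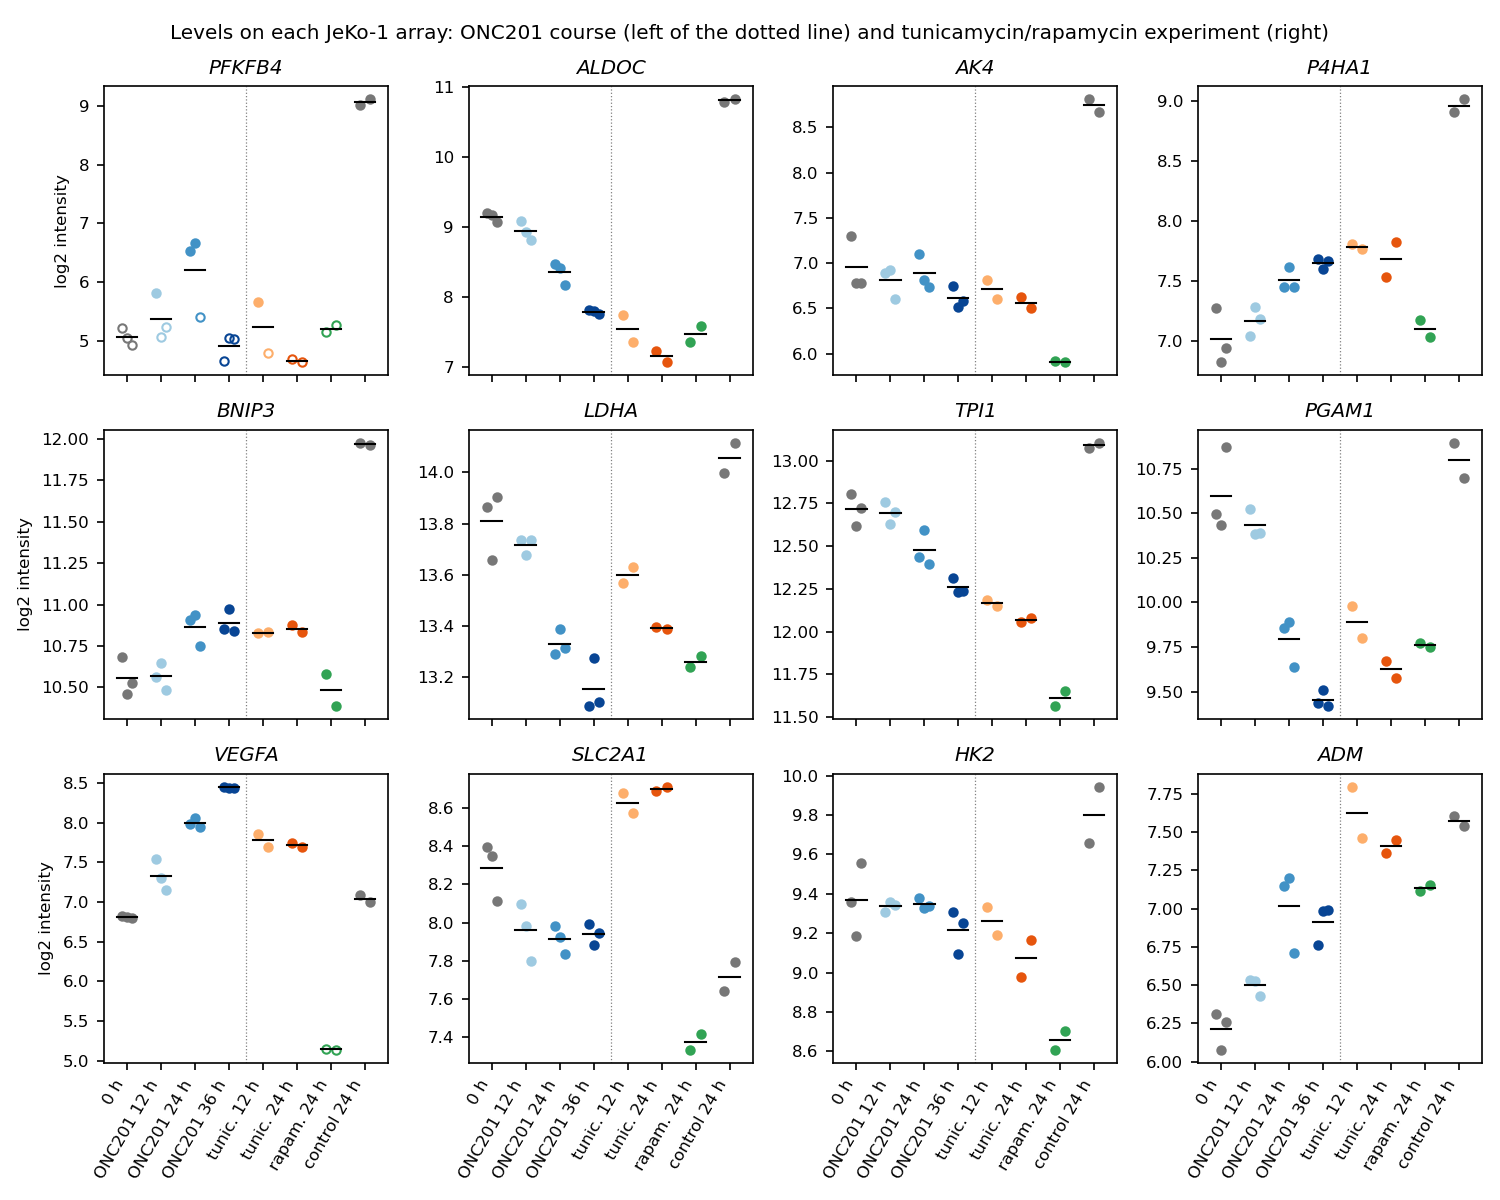
Log2 intensity of 12 members on each JeKo-1 array, by group, from the ONC201 course (0, 12, 24 and 36 h) to the second experiment (tunicamycin 12 and 24 h, rapamycin 24 h, untreated 24 h), with a dotted line between the experiments. Lines mark group means and open circles arrays on which the probe was not detected. PFKFB4, ALDOC, AK4, P4HA1 and BNIP3 are highest in the untreated cells at 24 h, and VEGFA is lowest under rapamycin.

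Tunicamycin and rapamycin were each set against the untreated cells of their own experiment at 24 h. That experiment had no untreated cells at 12 h. Treatment and time of harvest therefore cannot be told apart in the 12 h tunicamycin comparison. Nearly all members that changed were lower. After 12 h of tunicamycin 21 of 31 members tested were lower and 3 higher (11.7% of all 9517 genes lower, 13.8% higher). After 24 h of tunicamycin 21 were lower and 2 higher, where 15.3% and 17.2% of all genes were. Under rapamycin 24 were lower and 1 higher (12.6% and 12% of all genes). Without PFKFB4 and PFKFB2 the numbers lower were 20, 20 and 23. The median member difference was -0.52, -0.66 and -0.70 for the 3 treatments in that order, against medians of 0.03, 0.01 and 0.01 over all genes.

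Because untreated cells at 24 h stood so far above those at 0 h, each fall was read against both untreated groups. The 2 readings share the treated arrays, and the comparison with 0 h also crosses experiments. Lower than both untreated groups were 11 of 31 members at 12 h and 15 at 24 h of tunicamycin, and 17 under rapamycin. The same was true of 6.61%, 9.65% and 7.22% of all genes. Against 0 h alone, 13 members were lower and 10 higher at 12 h of tunicamycin (27% and 23.5% of all genes), 16 lower and 11 higher at 24 h (29.3% and 24.8%), and 17 lower and 6 higher under rapamycin (28.5% and 22.3%). Without PFKFB2 the number higher than at 0 h under rapamycin was 5. The glycolytic enzymes and the hypoxia genes parted here. Of 14 enzymes tested, 9, 11 and 11 were lower than both groups under the 3 treatments, and of 10 hypoxia genes 0, 2 and 3 were. A further 3, 3 and 2 hypoxia genes were lower than untreated cells at 24 h and yet higher than at 0 h. Over all genes that pattern held for 0.841%, 1.04% and 1.04%.

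**Figure D2:**
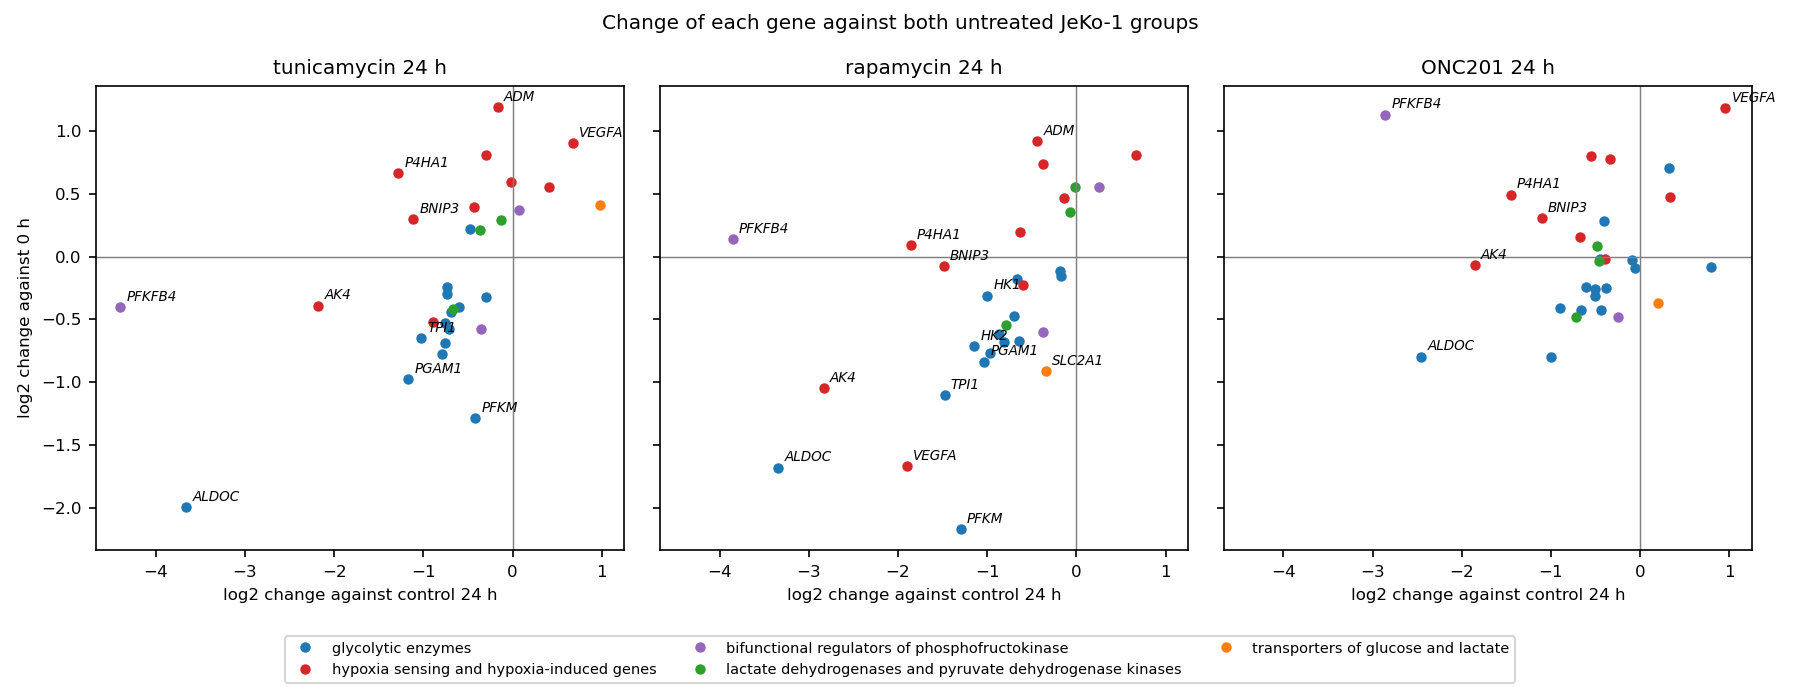
Change of each member under tunicamycin at 24 h, rapamycin at 24 h and ONC201 at 24 h, on the log2 scale, with the change against untreated JeKo-1 cells at 24 h on the x axis and against 0 h on the y axis, coloured by role. Most glycolytic enzymes lie below 0 on both axes, while P4HA1, BNIP3 and PFKFB4 lie at -1.11 or below on the x axis and between -0.40 and 1.13 on the y axis.

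Against untreated cells at 24 h the enzyme that fell most was ALDOC. It read 7.73 and 7.34 after 12 h and 7.23 and 7.06 after 24 h of tunicamycin, and 7.35 and 7.58 under rapamycin, against 10.79 and 10.82 in untreated cells at 24 h and 9.06 to 9.19 at 0 h. Every treated array lay below every untreated array of both kinds. The difference to untreated cells at 24 h was -3.27, -3.66 and -3.34 (adjusted p = 2.69e-05, 5.6e-06 and 3.64e-05), and to 0 h it was -1.60, -2.0 and -1.68 (adjusted p = 2.61e-08, 1.3e-09 and 2.52e-08). Its promoter above held 5 cores. PGAM1, the phosphoglycerate mutase, held none and read 9.98 and 9.80 after 12 h and 9.67 and 9.58 after 24 h of tunicamycin, and 9.77 and 9.75 under rapamycin, against 10.89 and 10.70 in untreated cells at 24 h and 10.49, 10.43 and 10.87 at 0 h. These groups were separate too. At 24 h of tunicamycin PGAM1 differed by -1.17 from untreated cells at 24 h and by -0.97 from 0 h, and under rapamycin by -1.03 and -0.84.

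TPI1 and PFKM were lower under rapamycin than under tunicamycin. TPI1 read 11.57 and 11.66 under rapamycin and 12.05 and 12.08 at 24 h of tunicamycin, against 13.07 and 13.10 in untreated cells at 24 h. Relative to that group its differences were -1.48 under rapamycin and -1.02 under tunicamycin, and relative to 0 h they were -1.10 and -0.65. PFKM read 7.57 and 7.64 under rapamycin and 8.51 and 8.46 at 24 h of tunicamycin, with 8.84 and 8.97 in untreated cells at 24 h. Under rapamycin it was lower by -1.30 than at 24 h and by -2.17 than at 0 h. Under tunicamycin the difference to untreated cells at 24 h was -0.42, a call lost without untreated array 2 or tunicamycin array 2 (adjusted p up to 0.0786). PFKL, the liver-type subunit, showed the reverse order: it read 7.68 and 7.81 after 12 h of tunicamycin and 7.97 and 8.14 after 24 h, against 8.81 and 8.81 in untreated cells at 24 h, while rapamycin arrays read 8.49 and 8.75. Its difference to the untreated group was -1.06, -0.75 and -0.18, the last not called (adjusted p = 0.286).

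ENO1, HK2, ALDOA, PGK1, GPI, PFKP and GAPDH were all lower under rapamycin than in untreated cells at 24 h. ENO1, the main enolase, read 13.76 and 13.78 after 12 h and 13.71 and 13.70 after 24 h of tunicamycin, and 13.30 and 13.38 under rapamycin, against 14.27 and 14.33 in untreated cells at 24 h and 14.10 to 14.12 at 0 h. It was lower than both untreated groups under each treatment, by -0.54, -0.60 and -0.96 against 24 h and by -0.34, -0.40 and -0.77 against 0 h. HK2 read 8.61 and 8.71 under rapamycin, against 9.66 and 9.94 in untreated cells at 24 h (-1.14, adjusted p = 0.00110) and 9.36, 9.19 and 9.56 at 0 h (-0.71, adjusted p = 5.51e-05). Under tunicamycin HK2 read 8.98 and 9.17 at 24 h, and its difference to 0 h of -0.29 was lost without 0 h array 1, 0 h array 3 or tunicamycin array 1 (adjusted p up to 0.244). ALDOA, the muscle-type aldolase, read 11.20 and 11.27 under rapamycin, against 12.25 and 11.96 in untreated cells at 24 h (-0.87, adjusted p = 0.00617). Its values at 24 h of tunicamycin, 11.61 and 11.21, gave -0.69, a call lost without untreated array 1 or tunicamycin array 2 (adjusted p up to 0.0614). PGK1 read 11.42 and 11.58 at 24 h of tunicamycin and 11.57 and 11.57 under rapamycin, against 12.24 and 12.24 in untreated cells at 24 h and 11.77, 11.46 and 12.01 at 0 h. It was lower than untreated cells at 24 h by -0.74 and -0.67, and not called against 0 h (-0.24 and -0.18, adjusted p = 0.158 and 0.319). GPI, which isomerises glucose phosphate, was lower at 24 h than both untreated groups under tunicamycin (-0.71 and -0.58) and rapamycin (-0.81 and -0.68), and so was PFKP, the platelet-type phosphofructokinase (-0.76 and -0.52, and -0.70 and -0.47). GAPDH, often used as a reference transcript, was lower under rapamycin by -0.64 and -0.67.

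HK1 divided the treatments. It read 10.05 and 10.00 under rapamycin and 10.51 and 10.61 at 24 h of tunicamycin, against 11.04 and 11.02 in untreated cells at 24 h and 10.31, 10.39 and 10.32 at 0 h. Rapamycin arrays lay below both untreated groups (-1.0 and -0.31, adjusted p = 0.000359 and 0.00287). Tunicamycin arrays lay between them, and the difference to 0 h of 0.22 was lost without 0 h array 1 or tunicamycin array 2 (adjusted p up to 0.160). PKM, the pyruvate kinase of the last step, was lower under tunicamycin at 24 h than both groups, with 9.27 and 9.60 against 10.18 and 10.28 in untreated cells at 24 h (-0.80) and 10.28, 10.08 and 10.27 at 0 h (-0.78). Under rapamycin it read 9.91 and 10.20 and was called in neither reading (-0.17 and -0.16, adjusted p = 0.399 and 0.226).

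LDHA read 13.57 and 13.63 after 12 h and 13.40 and 13.39 after 24 h of tunicamycin, and 13.24 and 13.28 under rapamycin, against 14.00 and 14.11 in untreated cells at 24 h. It was lower than untreated cells at 24 h by -0.46, -0.66 and -0.79. Against 0 h it was lower by -0.42 at 24 h of tunicamycin and by -0.55 under rapamycin, while the -0.21 at 12 h was lost on leaving out 4 of the 5 arrays in turn (adjusted p up to 0.192). LDHB was not called against untreated cells at 24 h under any of the 3 treatments (-0.05 to -0.13).

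PFKFB4 was no longer detected after 24 h of either compound, as at 0 h. It read 5.67 and 4.80 after 12 h and 4.70 and 4.64 after 24 h of tunicamycin, and 5.16 and 5.26 under rapamycin, against 9.02 and 9.11 in untreated cells at 24 h. The treated arrays lay more than 3 log2 units below those of untreated cells at 24 h. Its level was at least 14.5-fold lower under tunicamycin at 24 h (means of 4.67 and 9.06) and at least 13.5-fold lower under rapamycin (means of 5.21 and 9.06). Its passage through the filter rested on the untreated arrays at 24 h, so no support is taken from these calls. Against 0 h, where it was not detected either, the differences of -0.40 and 0.14 were not called (adjusted p = 0.295 and 0.735). At 12 h of tunicamycin it was detected on 1 of 2 arrays, and the difference to untreated cells at 24 h was -3.83. PFKFB3 read 9.02 and 8.74 after 12 h and 8.94 and 8.85 after 24 h of tunicamycin, and 8.91 and 8.83 under rapamycin. Those arrays lay below the 0 h arrays (-0.59, -0.57 and -0.60), and the smaller differences to untreated cells at 24 h were lost on leaving out single arrays (adjusted p up to 0.210, 0.165 and 0.150). PFKFB2, the third member of the family with a probe, was not called against untreated cells at 24 h (-0.08, 0.08 and 0.26).

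The glucose transporter SLC2A1 rose under tunicamycin. It read 8.68 and 8.57 after 12 h and 8.69 and 8.71 after 24 h, against 7.64 and 7.79 in untreated cells at 24 h and 8.40, 8.35 and 8.11 at 0 h. All 4 tunicamycin arrays lay above both untreated groups. The difference to untreated cells at 24 h was 0.91 and 0.98 (adjusted p = 0.000590 and 0.000235), and that to 0 h was 0.34 and 0.41 (adjusted p = 0.00834 and 0.00200). The 12 h call against 0 h was lost without tunicamycin 12 h array 1 (adjusted p = 0.0801). Rapamycin arrays read 7.34 and 7.42, below both untreated groups. There the difference to 0 h was -0.91 (adjusted p = 1.76e-06), and the difference of -0.34 to untreated cells at 24 h was lost on leaving out any of the 4 arrays (adjusted p up to 0.153).

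Among the hypoxia genes, AK4, P4HA1 and BNIP3 were lower than in untreated cells at 24 h under all 3 treatments, by more than 1 log2 unit each. AK4 read 6.81 and 6.61 after 12 h and 6.62 and 6.51 after 24 h of tunicamycin, and 5.92 and 5.90 under rapamycin, against 8.81 and 8.67 in untreated cells at 24 h and 7.30, 6.78 and 6.79 at 0 h. Rapamycin placed both arrays below 0 h, by -1.04 (adjusted p = 3.24e-05), and the -0.39 at 24 h of tunicamycin was lost without 0 h array 1 or either tunicamycin array (adjusted p up to 0.186). P4HA1 read 7.81 and 7.77 after 12 h and 7.53 and 7.83 after 24 h of tunicamycin, and 7.18 and 7.03 under rapamycin, against 8.91 and 9.02 in untreated cells at 24 h and 7.28, 6.82 and 6.94 at 0 h. Tunicamycin arrays thus lay between the untreated groups, lower by -1.17 and -1.28 than at 24 h and higher by 0.77 and 0.67 than at 0 h. Rapamycin arrays lay among the 0 h arrays (0.09, adjusted p = 0.562). BNIP3 read 10.83 and 10.83 after 12 h and 10.88 and 10.83 after 24 h of tunicamycin, and 10.58 and 10.39 under rapamycin, and so was lower than untreated cells at 24 h by -1.14, -1.12 and -1.49. Against 0 h the tunicamycin differences of 0.27 and 0.30 were lost on leaving out single arrays (at 24 h without tunicamycin array 1, adjusted p = 0.0597), and the rapamycin difference was -0.07 (adjusted p = 0.496).

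VEGFA rose under tunicamycin and fell under rapamycin. It read 7.86 and 7.70 after 12 h and 7.74 and 7.69 after 24 h of tunicamycin, against 7.08 and 7.0 in untreated cells at 24 h, so that it was higher by 0.74 and 0.67 (adjusted p = 0.00141 and 0.00124). Against 0 h it was higher by 0.97 and 0.90. Under rapamycin it read 5.15 and 5.14 and was detected on neither array. Its level there was at least 3.32-fold lower than in untreated cells at 24 h (means of 5.15 and 7.04, adjusted p = 5.72e-05) and at least 2.83-fold lower than at 0 h (means of 5.15 and 6.81, adjusted p = 1.73e-09). The second VEGFA probe gave -0.82 against untreated cells at 24 h. ADM read 7.37 and 7.45 at 24 h of tunicamycin and 7.11 and 7.15 under rapamycin, against 7.61 and 7.54 in untreated cells at 24 h and 6.31, 6.08 and 6.26 at 0 h. It stayed higher than 0 h by 1.19 and 0.92, while the rapamycin difference of -0.44 to untreated cells at 24 h was lost on leaving out any of the 4 arrays (adjusted p up to 0.134). BNIP3L was lower than untreated cells at 24 h by -0.39 and -0.30 at 12 and 24 h of tunicamycin and by -0.38 under rapamycin, calls that were lost on leaving out 4, 4 and 3 of the 4 arrays in turn (adjusted p up to 0.0756, 0.132 and 0.0952). It was higher than at 0 h by 0.72, 0.81 and 0.74.

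BHLHE40 read 9.54 and 9.43 after 12 h and 9.08 and 9.14 after 24 h of tunicamycin, and 9.37 and 9.44 under rapamycin, against 10.04 and 9.97 in untreated cells at 24 h and 9.59, 9.67 and 9.63 at 0 h. At 24 h of tunicamycin it was lower than both untreated groups, by -0.89 and -0.52. Under rapamycin the difference of -0.60 to untreated cells at 24 h was called, while the -0.23 to 0 h was lost without rapamycin array 1 (adjusted p = 0.104). ANKRD37 read 8.32 and 8.12 after 12 h of tunicamycin, against 7.40 and 7.31 in untreated cells at 24 h and 7.29, 7.09 and 7.27 at 0 h (0.87 and 1.01, adjusted p = 0.00441 and 0.000435). At 24 h it read 7.58 and 7.95 under tunicamycin and 7.94 and 8.11 under rapamycin. The tunicamycin difference to untreated cells at 24 h was not called (0.41, adjusted p = 0.0570), and the rapamycin difference of 0.67 was lost without untreated array 2 or rapamycin array 2 (adjusted p up to 0.0662). EGLN1 read 6.28 and 6.11 at 24 h of tunicamycin and 6.13 and 5.87 under rapamycin, against 6.77 and 6.49 in untreated cells at 24 h, and HIF1A read 5.36 to 5.70 on the 6 treated arrays. The HIF1A differences to untreated cells at 24 h, -0.02 to -0.14, were not called.

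Tunicamycin at 24 h was also set directly against rapamycin at 24 h. Of 31 members, 11 were higher under tunicamycin and 3 lower, where 18.2% of all genes were higher and 16.5% lower. The number called was 7 instead of 14 when tunicamycin 24 h array 1 was left out. VEGFA differed most: its tunicamycin arrays read 7.74 and 7.69 and its rapamycin arrays 5.15 and 5.14, at least 5.29-fold higher under tunicamycin (means of 7.72 and 5.15, adjusted p = 2.57e-06). SLC2A1 was higher by 1.32 (adjusted p = 3.98e-05), PFKM by 0.88, AK4 by 0.65, P4HA1 by 0.58, HK1 by 0.53 and TPI1 by 0.46. PKM was lower under tunicamycin by -0.62, a call lost without tunicamycin array 1 or rapamycin array 2 (adjusted p up to 0.0668). PFKL was lower by -0.57, a call lost without tunicamycin array 1 (adjusted p = 0.0508). ALDOC, PGAM1, PGK1 and LDHA differed by -0.32, -0.14, -0.07 and 0.13, none of them called (adjusted p = 0.129, 0.342, 0.641 and 0.272).

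In the ONC201 course several glycolytic enzymes of JeKo-1 cells were lower than at 0 h from 24 h on, and several hypoxia genes were higher. Cells at 0 h were the only control of this course, so time in culture is part of each difference to them. Of the hypoxia genes higher than at 0 h after 24 h of ONC201, 4 were lower than the untreated cells of the other experiment at 24 h. At 12 h 1 of 30 members was higher than at 0 h and none lower (2.16% and 1.65% of all 8823 genes). Without 0 h array 3 the number called was 2. At 24 h 8 were higher and 12 lower, where 19.9% and 18.5% of all genes were, and at 36 h 8 were higher and 13 lower, where 25.1% and 25.9% were. Without ENO2 and PFKFB4 the numbers higher were 6 and 7. From 24 h to 36 h 2 were higher at the later time and 5 lower (6.94% and 7.51%). That last count of 7 was 3 without 24 h array 1, and 4 without 24 h array 2 or without 36 h array 2. With ENO2 and PFKFB4 set aside, the number lower at 36 h than at 24 h was 4. The median member difference to 0 h was -0.03, -0.05 and -0.15 at the 3 times, against 0.00 over all genes.

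Of the 15 enzymes, 9 were lower and 2 higher at 24 h (18.5% and 19.9% of all genes). At 36 h 10 were lower and 2 higher (25.9% and 25.1%). Without ENO2 the number higher was 1 at each of these times. ALDOC read 9.19, 9.17 and 9.06 at 0 h, 9.08, 8.92 and 8.81 at 12 h, 8.47, 8.40 and 8.17 at 24 h and 7.81, 7.79 and 7.75 at 36 h. The groups from 24 h on lay below all earlier arrays, with differences to 0 h of -0.79 (adjusted p = 4.82e-05) and -1.36 (adjusted p = 2.62e-07), and 36 h was lower than 24 h by -0.56 (adjusted p = 0.00174). PGAM1 read 10.49, 10.43 and 10.87 at 0 h, 10.52, 10.38 and 10.39 at 12 h, 9.86, 9.89 and 9.64 at 24 h and 9.43, 9.51 and 9.42 at 36 h. It was lower by -0.80 and -1.14 at the later times (adjusted p = 0.000173 and 4.57e-06). PKM was lower by -0.42 and -0.80, and PFKP by -0.43 and -0.46. PKM read 9.72, 9.90 and 9.74 at 24 h and 9.44, 9.45 and 9.35 at 36 h, a further difference of -0.37 between the 2 times (adjusted p = 0.00593).

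ENO1 read 14.10, 14.10 and 14.12 at 0 h, 14.08, 13.94 and 14.07 at 12 h, 13.65, 13.90 and 13.83 at 24 h and 13.66, 13.70 and 13.69 at 36 h, and was lower by -0.31 and -0.42. ALDOA read 11.79, 11.78 and 11.97 at 0 h, 11.94, 11.75 and 11.93 at 12 h, 11.62, 11.59 and 11.58 at 24 h and 11.36, 11.31 and 11.30 at 36 h. Its difference was -0.53 at 36 h (adjusted p = 9.96e-05), while the -0.25 at 24 h was lost without 0 h array 3 or 24 h array 3 (adjusted p up to 0.0665). GPI was lower by -0.48 at 36 h, TPI1 by -0.45 and PGK1 by -0.51. GAPDH was lower by -0.31 at 36 h (adjusted p = 0.000967). The 24 h calls of GPI, TPI1 and PGK1 were each lost on leaving out at least 3 of the 6 arrays in turn.

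The enzymes called higher at 24 h were HK1 and ENO2, with ENO2 at the limit of detection. HK1 was higher by 0.28 at 24 h and 0.40 at 36 h (adjusted p = 0.0108 and 0.000737). ENO2, the neuronal enolase, read 4.92, 4.63 and 5.01 at 0 h, 5.20, 5.04 and 5.66 at 12 h, 5.56, 5.87 and 5.24 at 24 h and 5.56, 5.32 and 5.18 at 36 h. At 24 h 2 of 3 arrays detected it and at 0 h none did, and the filter was passed through those arrays, so only a bound of at least 1.03-fold higher can be given and no support is taken from its call. HK2 read 9.36, 9.19 and 9.56 at 0 h, 9.31, 9.36 and 9.34 at 12 h, 9.38, 9.33 and 9.34 at 24 h and 9.31, 9.09 and 9.25 at 36 h. Its groups overlapped and no difference was called. PGK1 overlapped between 0 h (11.77, 11.46 and 12.01) and 24 h (11.24, 11.50 and 11.27), and at 36 h read 11.00, 11.36 and 11.36.

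LDHA read 13.86, 13.66 and 13.90 at 0 h, 13.74, 13.68 and 13.74 at 12 h, 13.29, 13.39 and 13.32 at 24 h and 13.09, 13.27 and 13.10 at 36 h. It was lower by -0.48 and -0.65 (adjusted p = 0.000655 and 3.14e-05), with every array from 24 h on below every earlier array. LDHB was not called at any time (0.00, -0.04 and 0.03). PDK3 was higher by 0.37 at 36 h. SLC2A1 read 8.40, 8.35 and 8.11 at 0 h, 8.09, 7.98 and 7.80 at 12 h, 7.98, 7.93 and 7.84 at 24 h and 7.99, 7.88 and 7.95 at 36 h, and was lower by -0.37 at 24 h and -0.34 at 36 h (adjusted p = 0.00893 and 0.00892).

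PFKFB4 was higher at 24 h than at 0 h and again below detection at 36 h. It read 5.23, 5.05 and 4.93 at 0 h, 5.82, 5.07 and 5.24 at 12 h, 6.53, 6.67 and 5.40 at 24 h and 4.66, 5.05 and 5.04 at 36 h. The 24 h arrays themselves were spread, 2 of 3 detecting it. The measured means give bounds of at least 1.62-fold higher at 24 h than at 0 h (6.20 and 5.07) and at least 1.59-fold lower at 36 h than at 24 h (4.92 and 6.20). Its passage through the filter rested on the 24 h arrays, so no support is taken from its calls. PFKFB3 read 9.38, 9.58 and 9.44 at 0 h, 9.28, 9.27 and 9.21 at 12 h, 9.01, 8.99 and 8.97 at 24 h and 9.04, 8.98 and 8.90 at 36 h. It was lower by -0.48 and -0.49 (adjusted p = 0.000223 and 8.1e-05), whereas its second probe gave 0.04 at 24 h.

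Of 9 hypoxia genes tested in the course, 5 were higher at 24 h and 5 at 36 h, and none was lower. Of all genes 19.9% were higher and 18.5% lower at 24 h, and 25.1% and 25.9% at 36 h. VEGFA read 6.83, 6.81 and 6.79 at 0 h, 7.55, 7.30 and 7.15 at 12 h, 7.98, 8.06 and 7.94 at 24 h and 8.45, 8.44 and 8.44 at 36 h. Each group lay wholly above the one before it. It was higher than at 0 h by 0.52 at 12 h (adjusted p = 0.00787), the member called at that time, by 1.18 at 24 h (adjusted p = 1.46e-06) and by 1.63 at 36 h (adjusted p = 4.19e-08). Its second probe gave 1.05 at 24 h. BNIP3L was higher by 0.78 and 0.85 at 24 and 36 h (adjusted p = 2.39e-05 and 4.89e-06).

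ADM read 6.31, 6.08 and 6.26 at 0 h, 6.53, 6.53 and 6.43 at 12 h, 7.15, 7.20 and 6.71 at 24 h and 6.76, 6.98 and 6.99 at 36 h, and was higher by 0.80 and 0.70. P4HA1 was higher by 0.49 and 0.64, and BNIP3 by 0.31 and 0.33. BNIP3 read 10.69, 10.46 and 10.53 at 0 h, 10.57, 10.65 and 10.49 at 12 h, 10.91, 10.94 and 10.75 at 24 h and 10.85, 10.98 and 10.84 at 36 h, with the 2 later groups above the 2 earlier ones. EGLN1 read 5.90, 5.59 and 5.90 at 0 h and 5.84 to 6.17 on the 9 treated arrays and was not called. BHLHE40 read 9.49 to 9.71 over all 12 arrays and was not called either. HIF1A read 4.54 to 5.70 and was detected on too few arrays to be tested in the course. AK4 and ANKRD37 were not called at any time.

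Set against the untreated cells of the other experiment at the same time, ONC201 at 24 h lowered most members. Of 32 members 24 were lower and 2 higher, where 21.4% of all genes were lower and 29.2% higher, and the median was -0.47 (0.04 over all genes). Lower than both untreated groups were 11 of the 30 members tested in both readings (8.3% of all genes), among them 9 of 15 enzymes. A further 6 were lower than untreated cells at 24 h and higher than at 0 h (1.87% of all genes), and 4 of these were hypoxia genes. PFKFB4 is among the 6, but its passage through the filter of the course rested on the ONC201 24 h arrays. No support is taken from it. P4HA1 differed by -1.45 from untreated cells at 24 h and by 0.49 from 0 h, and BNIP3 by -1.11 and 0.31. ALDOC was lower in both readings (-2.46 and -0.79), and VEGFA was higher in both (0.95 and 1.18). The signs also changed for ADM (-0.55 and 0.80), BNIP3L (-0.34 and 0.78), HK1 (-0.41 and 0.28) and, as fitted values, PFKFB4 (-2.86 and 1.13). For P4HA1, BNIP3, ADM, BNIP3L and HK1 the sign depends on which untreated group is used. The group of the same time came from another stock culture and chip.

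**Figure D3:**
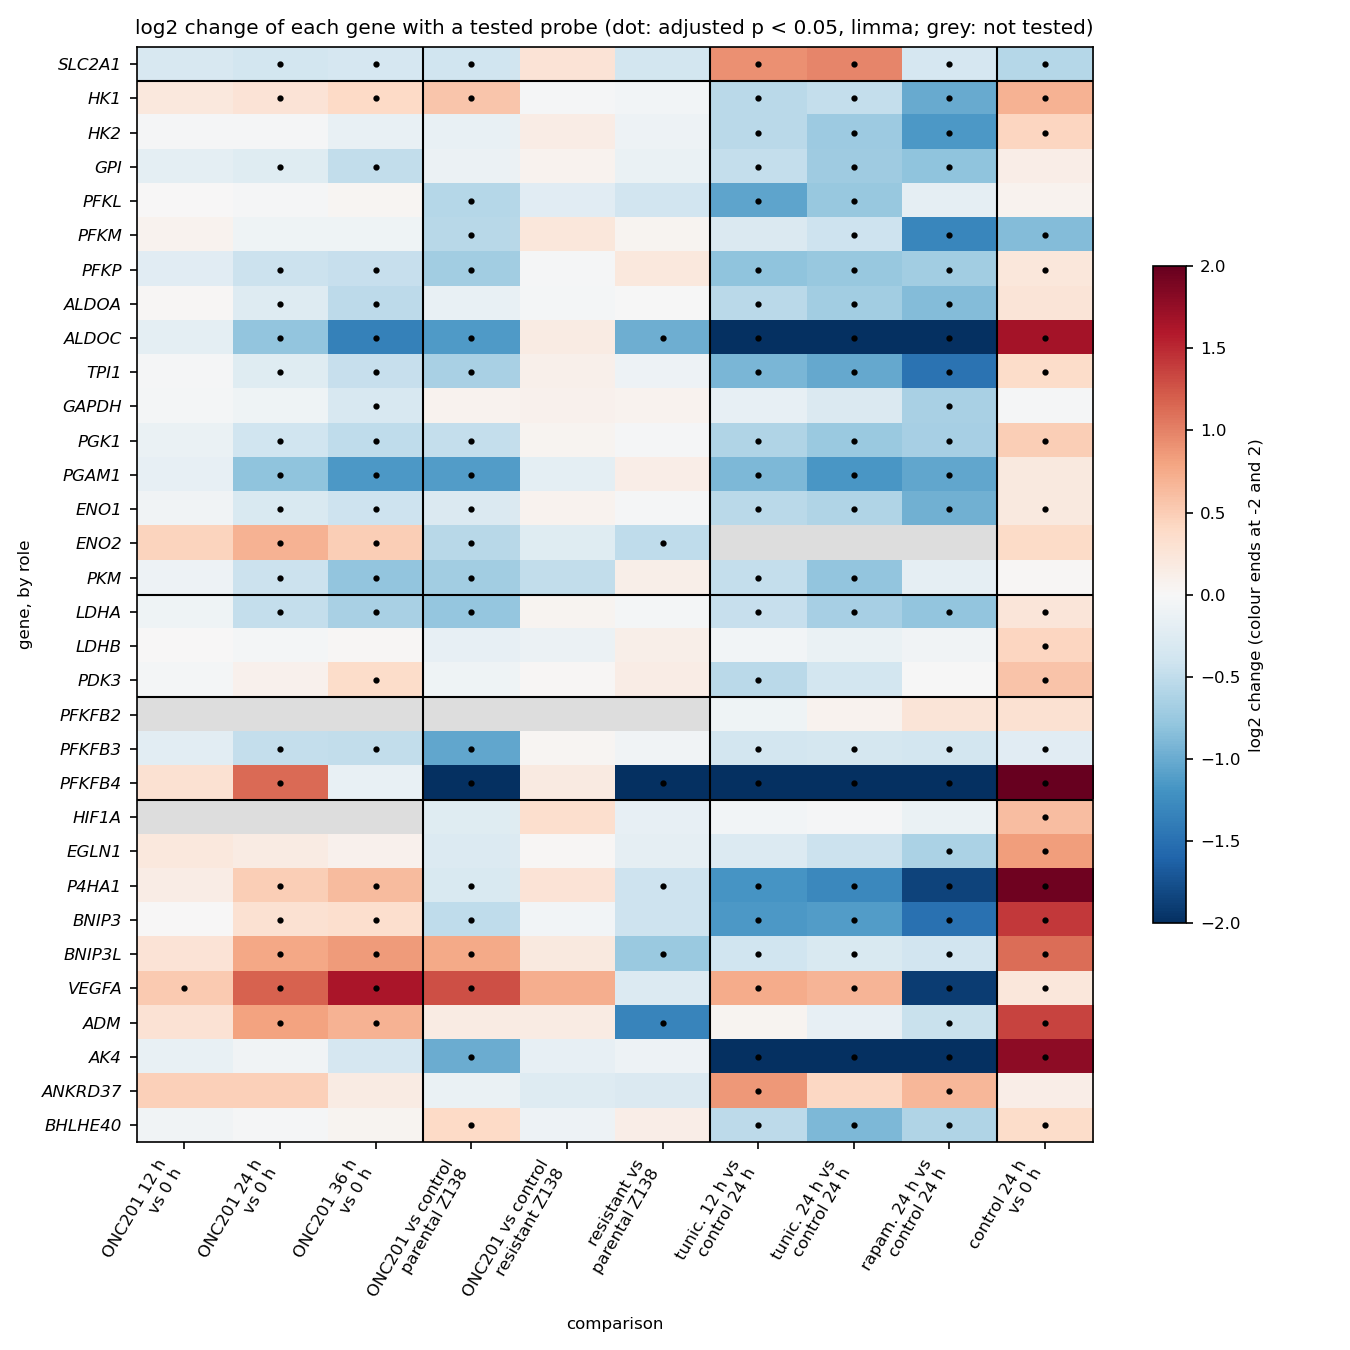
Change of each member in 10 comparisons, as log2 difference, with red for higher and blue for lower in the treated, resistant or later group. Colours end at -2 and 2, dots mark adjusted p under 0.05 and grey marks members not tested. ALDOC and PGAM1 are blue with dots under ONC201 from 24 h on in JeKo-1, in parental Z138 and under tunicamycin and rapamycin, and the column for resistant Z138 under ONC201 holds no dot.

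In parental Z138 cells 24 h of ONC201 lowered most of the set. Of 31 members tested 17 were lower and 4 higher, where 21.9% of all 9453 genes were lower and 22.8% higher, and the median was -0.30 against 0.00 over all genes. Scaling arrays by their medians in place of quantile normalization moved the median of all genes by 0.19 here, and 10 members were then lower and 4 higher. Without ENO2 and PFKFB4 the number lower in the main setting was 15. All-gene calls were 2455 higher and 676 lower under that scaling, against 2158 and 2074. Of 15 enzymes 10 were lower and 1 was higher, or 9 and 1 without ENO2.

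PGAM1 read 9.73 and 9.82 with ONC201, against 10.83 and 10.95 in untreated parental cells (-1.11, adjusted p = 0.000144). ALDOC read 6.55 and 6.97 with ONC201 and 7.83 and 7.95 without (-1.13, adjusted p = 0.000365). Neither gene had overlapping arrays. PFKP and PKM were lower by -0.70 each, TPI1 by -0.64, PFKL by -0.57 and PFKM by -0.56. ENO2 read 5.03 and 4.79 with ONC201, where neither array detected it, and 5.40 and 5.54 without, where both did. Those 2 untreated arrays alone carried ENO2 through the filter in Z138, so it had to be lower in the other groups and its call supports nothing. ALDOA read 11.96 and 11.75 with ONC201 and 12.00 and 12.02 without and was not called. HK1 was higher, at 9.62 and 9.54 with ONC201 against 8.98 and 9.06 without (0.55, adjusted p = 0.00189). HK2 overlapped, at 8.42 and 8.80 against 8.60 and 8.92. ENO1 (13.64 and 13.61 with ONC201, 13.89 and 13.93 without) and PGK1 (11.15 and 11.25 with, 11.78 and 11.59 without) were called at -0.29 and -0.48, but the ENO1 call was lost without any 1 of the 4 arrays (adjusted p up to 0.115) and the PGK1 call without untreated array 1 or ONC201 array 1 (adjusted p up to 0.0568).

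LDHA read 13.08 and 13.10 with ONC201 and 13.84 and 13.89 without (-0.77, adjusted p = 0.000223). PFKFB3 read 7.51 and 7.78 with ONC201 and 8.63 and 8.73 without (-1.04, adjusted p = 0.000172), although its second probe gave -0.02. PFKFB4 read 4.49 and 5.75 with ONC201, 1 array detecting it, and 7.05 and 7.41 without. Its passage through the filter also rested on the untreated parental arrays. SLC2A1 read 8.5 and 8.68 with ONC201 and 8.88 and 9.09 without (-0.39), a call lost without untreated array 2 or ONC201 array 1 (adjusted p up to 0.121).

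Of the 10 hypoxia genes tested in parental Z138, 3 were higher and 3 lower, where 22.8% and 21.9% of all genes were. VEGFA read 7.58 and 7.59 with ONC201 and 6.37 and 6.21 without (1.29, adjusted p = 0.000121). BNIP3L was higher by 0.76 (adjusted p = 0.00172), and BHLHE40 read 9.71 and 9.73 with ONC201 and 9.31 and 9.35 without (0.39). AK4 read 8.77 and 8.69 with ONC201 and 9.70 and 9.77 without (-1.0, adjusted p = 0.000121), and BNIP3 9.66 and 9.73 with and 10.12 and 10.29 without (-0.51). The groups of these 5 genes did not overlap. P4HA1 was lower by -0.30, a call lost without untreated array 1 or either ONC201 array (adjusted p up to 0.0951). ADM, at 10.62 and 10.60 with ONC201 and 10.42 and 10.47 without, was not called (0.16, adjusted p = 0.156), and neither were EGLN1 (6.55 and 6.59 with, 6.68 and 6.99 without) and HIF1A (5.48 and 5.35 with, 5.67 and 5.63 without).

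In resistant Z138 cells limma called 0 of 31 members under ONC201, where it called 0.487% of all genes. At an unadjusted p under 0.05 there were 6 members. With some other ways of processing the count was 1 or 2, as given in the closing section, and with a replicate block or with single arrays left out it stayed at 0. VEGFA came nearest, with 6.58 and 6.93 under ONC201 and 6.04 and 6.0 in untreated resistant cells (0.73, adjusted p = 0.050025, just above the threshold). PKM was next, with 10.19 and 10.40 against 10.86 and 10.72 (-0.50, adjusted p = 0.0726). The arrays of both genes were separate. The members that fell most in parental cells had values close to their controls: PGAM1 read 10.72 and 10.93 with ONC201 and 11.10 and 10.93 without, ALDOC 7.13 and 7.03 with and 6.94 and 6.88 without, and LDHA 13.88 and 13.89 with and 13.78 and 13.87 without.

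The difference between the effect in resistant and in parental cells was tested directly. For 14 members the effect of ONC201 was higher (less negative or more positive) in resistant cells, and for 4 it was lower, where 14.2% and 16.3% of all genes were. PFKFB4 is among the 14, but it was detected on none of the 4 resistant arrays, so a fall could not be measured there and no size is given. The effect differed by 1.30 for ALDOC, 1.08 for PFKFB3, 0.92 for PGAM1, 0.83 for LDHA and 0.83 for AK4 (adjusted p = 0.00218, 0.00177, 0.00382, 0.00197 and 0.00334). Each of these 5 had been lowered in parental cells. HK1, which parental cells raised, differed by -0.58 (adjusted p = 0.0125). For VEGFA the difference was -0.56 (adjusted p = 0.0432), and this call was lost on leaving out 7 of the 8 arrays in turn (adjusted p up to 0.113). ADM differed by 0.00 (adjusted p = 0.989). Under scaling by medians 6 members were called in place of 18, and the median of all genes moved by -0.32.

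**Figure D4:**
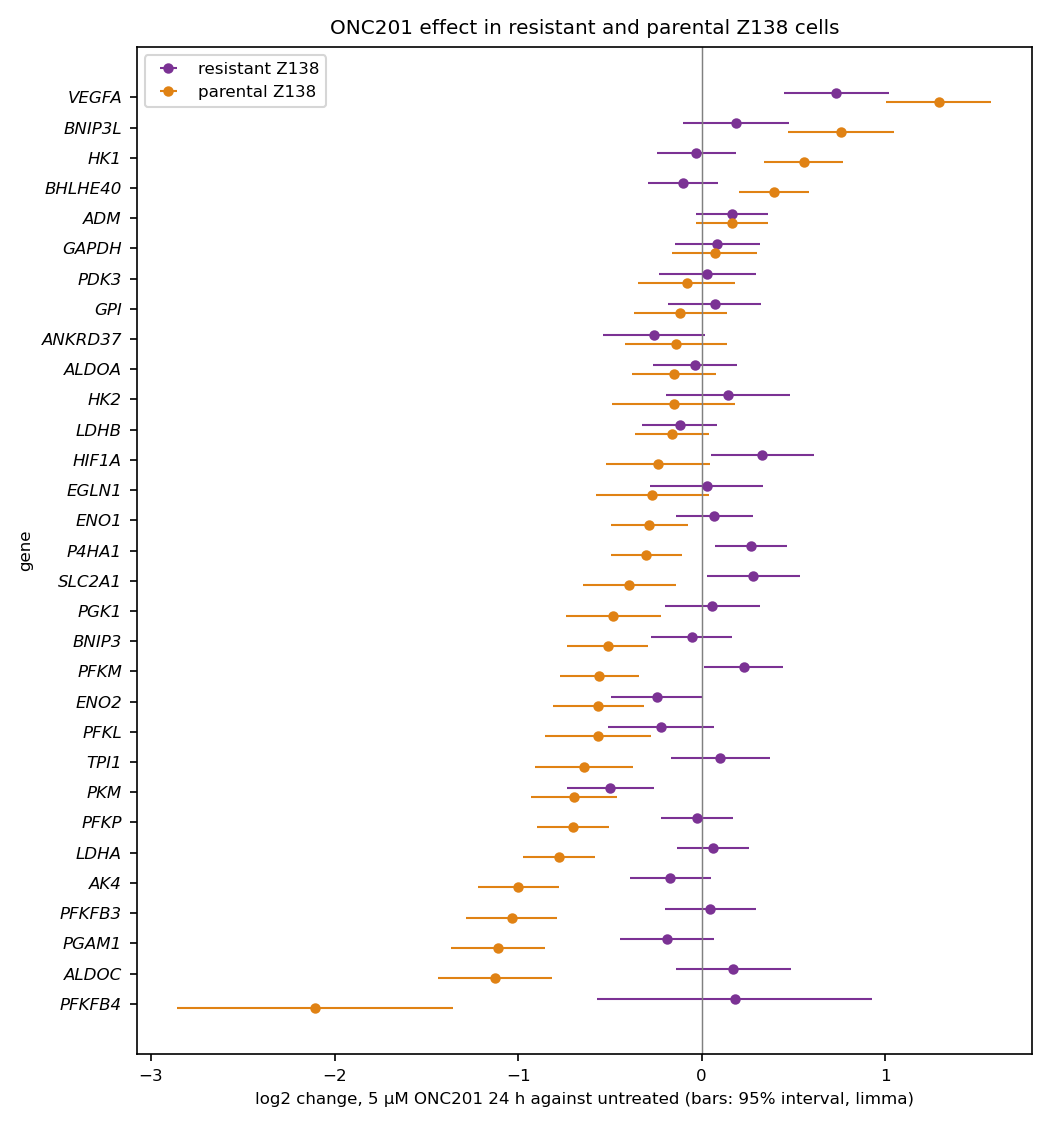
Effect of ONC201 (log2, ONC201 minus untreated, with 95% intervals from limma) on each member in resistant and parental Z138 cells, ordered by the effect in parental cells. ALDOC, PGAM1, PFKFB3 and AK4 are at or below -1.0 in parental cells and near 0 in resistant cells, and VEGFA lies above 0 in both. PFKFB4 and ENO2 were detected on no resistant array, so their resistant points show no measured effect.

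Before any ONC201, resistant cells already differed from parental cells in 6 members, all lower (2.39% of all genes were lower), and 0 were higher (1.52%). The count was 3 on leaving out any 1 of the 4 arrays, and 4 without ENO2 and PFKFB4. ADM read 9.08 and 9.17 in resistant and 10.42 and 10.47 in parental cells (-1.32, adjusted p = 0.000127). PFKFB4 read 4.36 and 4.38 in resistant cells, neither detected, and 7.05 and 7.41 in parental cells, at least 3.87-fold lower (means of 4.37 and 7.23). Its passage through the filter rested on the parental arrays, so no support is taken from its call. ALDOC read 6.94 and 6.88 in resistant and 7.83 and 7.95 in parental cells (-0.98, adjusted p = 0.00754), which was lost without resistant array 2 (adjusted p = 0.0622). The groups of these 3 genes were separate. BNIP3L was lower by -0.74 and P4HA1 by -0.42, each lost on leaving out single arrays (adjusted p up to 0.0893 and 0.163). ENO2 was the sixth, not detected on either resistant array and carried through the filter by the parental ones. The untreated resistant values of ALDOC lay within the range of ONC201-treated parental cells.

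The effect of ONC201 at 24 h was compared between JeKo-1 and parental Z138. The JeKo-1 effect is measured against 0 h and the Z138 effect against untreated cells at 24 h, so line and type of control cannot be told apart. The effect was higher in JeKo-1 for 11 of 32 members and lower for 1, where 11.9% and 11.5% of all genes were. PFKFB4 and ENO2 are among the 11, but neither was detected at 0 h in JeKo-1 or on every treated parental array, so no size is given for them. The effect differed by 0.93 for AK4, 0.82 for BNIP3 and 0.79 for P4HA1, and by -0.41 for BHLHE40. For BNIP3 and P4HA1 the effect was above 0 in JeKo-1 and below 0 in Z138, and against the untreated JeKo-1 cells at 24 h it was below 0 in JeKo-1 too. VEGFA and BNIP3L, higher in both lines against these controls, differed by -0.11 and 0.02 and were not called (adjusted p = 0.634 and 0.959). Against untreated JeKo-1 cells at 24 h VEGFA was higher by 0.95, but BNIP3L was lower by -0.34. PGAM1 and ALDOC, lower in both lines, differed by 0.31 and 0.33 (adjusted p = 0.184 and 0.194).

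Other genes of both pathways came from lists that left out the 37 members. Of 28 further glycolysis genes, 16 or 17 were tested in each comparison of treatments and 26 had a named probe. Under ONC201 in JeKo-1, 1 of 16 was higher and 3 were lower at 24 h (19.9% and 18.5% of all genes), and 1 was higher and 4 were lower at 36 h (25.1% and 25.9%). The shares lower were close to those of all genes. In parental Z138 3 of 16 were higher and 1 was lower (22.8% and 21.9% of all genes), and in resistant Z138 limma called 0 (4 at an unadjusted p under 0.05). At 24 h of tunicamycin 2 of 16 were higher and 5 lower (17.2% and 15.3%), and under rapamycin 2 were higher and 3 lower (12% and 12.6%). In untreated JeKo-1 cells at 24 h against 0 h 1 of 17 was higher and 7 were lower (20.6% and 27.2%), whereas 7 of the 15 member enzymes were higher and 1 lower. SLC2A6, a relative of the glucose transporters, was lower by -0.95 at 24 h and -1.31 at 36 h of ONC201 than at 0 h in JeKo-1. Untreated JeKo-1 cells at 24 h were also lower than at 0 h, by -1.02. In parental Z138 the SLC2A6 difference under ONC201 was -1.03. MPC1, a subunit of the carrier that brings pyruvate into mitochondria, was higher by 0.67 at 36 h in JeKo-1, by 0.98 in parental Z138 and by 1.10 at 24 h of tunicamycin. PGM1, the phosphoglucomutase that links glycogen to glycolysis, was higher by 1.22 in untreated JeKo-1 cells at 24 h than at 0 h, lower by -0.79 at 24 h of tunicamycin and by -1.26 under rapamycin than untreated cells at 24 h, and lower by -1.51 in untreated resistant than in parental Z138 cells.

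Of 40 further hypoxia genes 33 had a named probe, and 22 to 24 were tested in each comparison. In JeKo-1 6 of 22 were higher and 2 lower at 24 h of ONC201 (19.9% and 18.5% of all genes), and 9 were higher and 4 lower at 36 h (25.1% and 25.9%). In parental Z138 6 of 24 were higher and 5 lower, shares near the 22.8% and 21.9% of all genes, and in resistant Z138 limma called 0 (1 at an unadjusted p under 0.05). Under tunicamycin at 24 h 2 of 23 were higher and 6 lower (17.2% and 15.3% of all genes), and under rapamycin 1 and 6 (12% and 12.6%). In untreated cells at 24 h against 0 h 5 of 23 were higher and 1 was lower (20.6% and 27.2%). P4HB, the beta subunit of the collagen prolyl hydroxylase and a folding catalyst of the endoplasmic reticulum, was higher by 0.81 at 36 h of ONC201, by 0.71 in parental Z138 and by 1.13 at 24 h of tunicamycin. MXI1, an antagonist of MYC, was higher by 1.08 at 36 h of ONC201. GBE1, the glycogen branching enzyme, was lower by -0.86 at 36 h of ONC201 and by -0.81 in parental Z138. FAM162A, a mitochondrial protein known as a hypoxia target, was higher by 1.14 in untreated cells at 24 h than at 0 h and lower by -1.14 under tunicamycin and -0.99 under rapamycin at 24 h. KDM3A, a histone demethylase induced by hypoxia, was higher by 1.05 in untreated cells at 24 h than at 0 h. HILPDA, the 1 further hypoxia gene called lower in that comparison, differed by -0.65.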

How the data were processed

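The deposited table used here holds, per the file headers, 1 uncorrected linear intensity and 1 detection p-value per array for each of 47231 probes. GenomeStudio was used, per the submitters' processing notes. The authors' 2 other deposited tables (background-subtracted intensity, and normalized intensity of 38220 probes, whose method is not given in the sources used here) served as alternatives. Signals were corrected with neqc of limma 3.58.1 (R 4.3.3, offset 16, background inferred from the detection p-values, which imply 770 negative controls), quantile-normalized over the 28 arrays and taken to log2. The platform annotation gave 27004 probes 1 symbol, 4 probes several and 20223 probes none. For 26970 of the 27004 a current symbol was found by gene ID and used. Among a gene's probes that passed the detection filter, the one with the highest mean on the 28 arrays was used. Each experiment was fitted with lmFit and eBayes over its groups. Comparisons between the JeKo-1 experiments used the 20 JeKo-1 arrays and those between lines all 28. Calls used limma's p, Benjamini-Hochberg adjusted over all genes, under 0.05, and the fit was tested on simulated data. No array was left out, 0 value columns lacked a sample, and precision is limited by the number of arrays. Any member could be named. Values per array were given for a fixed panel and for the largest changes, and genes of the 2 further lists by the largest change. The members and lists were chosen with earlier results of these data known. The alternatives tried were other background corrections, offsets, normalizations, detection filters, probe rules, sample sets, a replicate block and leaving out each array. Counts without members whose passage through the detection filter rested on 1 group were added after seeing the data. Promoters came from RefSeq (GRCh38.p14). The software was completed by the package data.table (1.17.8), pandas 2.3.3 and matplotlib 3.10.9 under Python 3.11.15.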

Additional observations from a re-analysis of the deposited data

Results flagged for a closer look

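The effect of ONC201 differed between resistant and parental Z138 cells, by the interaction test in limma, for 18 of the members. The resistant effect minus the parental effect was 1.30 for ALDOC, 1.08 for PFKFB3, 0.92 for PGAM1, 0.83 for LDHA, 0.83 for AK4, 0.79 for PFKM, 0.74 for TPI1, 0.68 for SLC2A1 and 0.67 for PFKP on the log2 scale. It was 0.57 for P4HA1, 0.57 for HIF1A, 0.54 for PGK1 and 0.46 for BNIP3. For HK1 it was -0.58, for BNIP3L -0.57, for VEGFA -0.56 and for BHLHE40 -0.49. The calls of HIF1A, BNIP3, BNIP3L and VEGFA were lost on leaving out 7 of the 8 arrays in turn, that of PGK1 on leaving out 6, and that of BHLHE40 without untreated resistant array 2 (adjusted p = 0.0513). HIF1A was near the limit of detection throughout. The fitted value of PFKFB4 was 2.28, but none of the 4 resistant arrays detected it, so that value is set against background and is no measured difference of effects.

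Between JeKo-1 and parental Z138 the effect of ONC201 at 24 h differed for 12 members. JeKo-1 minus parental Z138 gave 0.93 for AK4, 0.82 for BNIP3, 0.79 for P4HA1, 0.64 for ADM, 0.56 for PFKFB3, 0.54 for PFKL, 0.48 for PFKM, 0.40 for TPI1 and 0.30 for LDHA. The difference was -0.41 for BHLHE40. The fitted values of 3.24 for PFKFB4 and 1.26 for ENO2 are no measured sizes, since neither gene was detected at 0 h in JeKo-1 and treated parental arrays detected PFKFB4 on 1 of 2 and ENO2 on 0 of 2. The LDHA call was lost on leaving out 8 of the 10 arrays in turn, that of TPI1 without ONC201 JeKo-1 array 2, untreated parental array 2 or ONC201 parental array 1, that of PFKL without ONC201 parental array 1 (adjusted p = 0.136) and that of PFKM without untreated parental array 2 (adjusted p = 0.0708). The JeKo-1 effect was taken against 0 h and the Z138 effect against untreated cells at 24 h.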

How the results depend on the processing

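Beside the single genes named with their arrays in the results, the counts of called members moved by over 1.5 times in these cases. ONC201 at 12 h had 1 call and 2 in a single fit over the 28 arrays. Resistant Z138 under ONC201 had 0 calls, 2 without background correction, 2 with an offset of 50, 1 on the authors' normalized values, 2 with detection required on every array and 2 in the single fit. Scaling by medians left 3 of 6 calls between untreated resistant and parental Z138, 6 of 18 for the difference of their effects and 6 of 12 between the lines; it moved the median of all genes by 0.17, -0.32 and -0.16 there, and by -0.12 for resistant Z138 under ONC201. VEGFA in untreated JeKo-1 cells at 24 h against 0 h reversed, with -0.084 for the mean of its probes against 0.23. The causes were not tested. With 1 array left out in turn, the number called ran from 1 to 2 at 12 h of ONC201 in JeKo-1, 16 to 20 at 24 h, 20 to 22 at 36 h and 3 to 5 between 24 and 36 h. It ran from 17 to 19 in parental and 0 to 0 in resistant Z138, was 3 between the untreated lines in every case and 13 to 15 for the difference of effects. For tunicamycin it was 17 to 19 and 20 to 22 at 12 and 24 h, for rapamycin 19 to 22, and between the compounds 7 to 11. It was 17 to 21 for untreated cells at 24 h against 0 h, 18 to 21, 21 to 26 and 21 to 23 for tunicamycin at 12 and 24 h and rapamycin against 0 h, 23 to 28 for ONC201 against untreated cells at 24 h and 9 to 13 between the lines. Over all genes, ONC201 at 12 h called 337 genes, 519 in the single fit and 218 with the replicate block. For resistant Z138 under ONC201 it was 46 genes, 418 without background correction, 454 with an offset of 50, 107 with median scaling, 312 with detection on every array, 604 in the single fit and 0 with each experiment normalized alone, with no filter or with the block. Resistant against parental Z138 called 370 genes, 205 with no filter and 623 in the single fit. Median scaling moved the split of all genes (higher and lower) to 83 and 148 from 191 and 146 at 12 h of ONC201, to 181 and 111 from 144 and 226 between untreated resistant and parental cells, to 237 and 2087 from 1345 and 1541 for the difference of effects, to 872 and 1113 from 1313 and 1116 at 12 h of tunicamycin, to 673 and 1260 from 1138 and 1198 under rapamycin and to 528 and 1636 from 1262 and 1223 between the lines. In the ONC201 course same-numbered arrays deviated together no more than others (r of -0.15 to 0.08, against -0.09 to 0.15). In groups of 2 arrays the deviations mirror each other, so the other experiments cannot be checked in this way. The check does not show whether equal numbers mark a pairing. With the replicate block the members called were 1, 21, 21 and 5 in the ONC201 course (12, 24 and 36 h, and 36 against 24 h). In Z138 the numbers with the block were 21, 0, 4 and 16 (parental, resistant, untreated, difference). For tunicamycin at 12 and 24 h, rapamycin and their comparison they were 24, 23, 24 and 13. No normalization within each experiment was run for comparisons across experiments. Over single members, 150 of the alternative results that kept every array dropped below the threshold, 85 passed it, 5446 stayed on their side and 1 reversed. A change of a probe near the detection limit (ENO2, HIF1A, PFKFB2, PFKFB4) is measured less well than its fitted size shows.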
